A study of Mus musculus with 4 samples.

Results

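Interferon-stimulated genes were examined in livers of mice lacking neuregulin 4 (Nrg4), a secreted protein that activates ErbB receptors, and of wild-type mice. The set comprised 37 genes listed by name, of which 35 had a probe set paired with that symbol alone in the platform annotation, out of 22180 genes measured in this way. Where a gene had more than 1 such probe set, the brightest on average was taken. Ifi44 and Gbp2 had none (the probe set of Gbp2 is paired with Gbp2b as well) and were not analysed here. The set was divided into 9 interferon-gamma targets (Gbp2, Gbp3, Gbp7, Irgm1, Irgm2, Igtp, Tap1, Psmb8 and Psmb9) and the other 28 genes, called type I targets below.

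The livers came from male mice, wild type (WT) or Nrg4 knockout (KO), that began a diet causing non-alcoholic steatohepatitis (NASH diet) at 3 months of age and ate it for 20 weeks, and whose livers were taken in the random-fed state. Both genotypes ate the diet, and no group on another diet was analysed here. Of the 4 Affymetrix Mouse Gene ST 2.1 arrays, 2 held pools of WT liver RNA and 2 held pools of KO liver RNA. The number of animals per pool, the disrupted part of Nrg4, the cells it was lost from and the strain were not given in the sources used here. Values are the deposited log2 expression values, whose zero point is unknown, so a value is compared between pools of the same gene and never between genes. Nrg4 itself read 2.54 and 2.30 in WT and 0.93 in both KO pools, a difference of -1.49 ± 0.20 (SE; limma without a filter, adjusted p = 0.182). Array medians lay between 0.52 and 0.64. Of the 35 genes, 34 had a mean no lower than the median probe set (0.54) and were tested among 12458 genes; Mx1 was dimmer.

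Interferons are cytokines that cells release when they sense foreign or displaced nucleic acid. Type I interferons act through the receptor Ifnar1 and Ifnar2 and the factor ISGF3, which contains Stat2 and Irf9 and binds the interferon-stimulated response element (ISRE). Interferon-gamma, released mainly by T and NK cells, acts through Ifngr1 and Ifngr2, and its targets often carry the gamma-activated site (GAS). The 2 programmes overlap: type I interferon also raises many genes of the interferon-gamma group, and the reverse. In liver, hepatocytes, macrophages and endothelial cells all respond to both.

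Before the values, the promoters of members that the results turn on show which of these elements each gene carries. RefSeq promoters of assembly GRCm38.p6 were found for 29 of the 37 members, and the 250 bases upstream of each start site were searched on both strands. The ISRE was searched as GAAA, any 2 bases, then GAAA (TTTC, any 2 bases, then TTTC on the other strand), and the GAS as TTCNNNGAA, which reads alike on both strands. A gene was counted when any of its promoters held a match. Gbp3, Ifit2, Irf1 and Irf9 had 2 promoters each, with matches in only 1 of those of Gbp3, Ifit2 and Irf1. ISRE letters stood upstream of 13 of the 29 genes (44.8%), against 3.46% of the 27025 genes in the table. GAS letters stood upstream of 9 of 29 (31.0%), against 8.13%. Both stood upstream of 4 of 29, namely Bst2, Gbp7, Igtp and Irgm2, against 0.40% of all genes, and in Bst2 the matches overlap. By group, ISRE letters stood upstream of 7 of 20 type I targets and 6 of 9 interferon-gamma targets, and GAS letters upstream of 5 and 4. A match is a description of letters, not a site shown to be bound, and overlapping ISRE matches can be 1 element. The stretches below hold the matches in capitals with up to 30 bases on either side, 5′ to 3′ on the gene's own strand. They are shown for 4 genes that read higher in both KO pools (Irgm2, Igtp, Ifit3 and Stat2), 1 that read lower in both (Oas3) and 3 whose pools overlapped (Irgm1, Ifit1 and Isg15).
Irgm2 (chr11:58214872-58214952, plus strand): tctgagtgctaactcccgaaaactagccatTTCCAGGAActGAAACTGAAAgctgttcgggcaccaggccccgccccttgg
Igtp (chr11:58199481-58199555, plus strand): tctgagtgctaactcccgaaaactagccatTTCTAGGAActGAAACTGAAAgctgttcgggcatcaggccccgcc
Irgm1 (chr11:48871421-48871480, minus strand): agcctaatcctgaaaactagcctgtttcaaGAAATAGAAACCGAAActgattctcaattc
Ifit3 (chr19:34583343-34583446, plus strand): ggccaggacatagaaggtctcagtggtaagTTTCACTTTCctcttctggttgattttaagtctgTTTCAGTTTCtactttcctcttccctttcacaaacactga
Ifit1 (chr19:34640755-34640843, plus strand): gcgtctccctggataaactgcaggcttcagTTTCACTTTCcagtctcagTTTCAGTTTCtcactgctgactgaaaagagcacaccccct
Stat2 (chr10:128270248-128270315, plus strand): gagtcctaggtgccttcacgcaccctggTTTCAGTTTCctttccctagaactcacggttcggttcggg
Isg15 (chr4:156200845-156200926, minus strand): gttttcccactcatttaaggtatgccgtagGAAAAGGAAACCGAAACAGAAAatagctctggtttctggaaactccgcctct
Oas3 (chr5:120777695-120777764, minus strand): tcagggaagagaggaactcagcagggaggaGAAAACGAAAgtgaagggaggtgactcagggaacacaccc

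Irgm2 and Igtp, neighbours on chromosome 11, carry a GAS and an ISRE separated by 2 bases, and the 75 bases printed for Igtp match the same stretch of Irgm2 at 73 positions. Irgm1, the third gene of this family, carries a pair of overlapping ISRE matches near its start site and no GAS letters in the window. Ifit1 and Ifit3 each carry a pair of separate ISRE matches, Isg15 a run of 3 overlapping ones, and Stat2 and Oas3 a single match. ISRE letters stood upstream of 4 of 7 members that read higher in both KO pools, of 1 of 4 that read lower in both, and of 7 of 16 whose pools overlapped (Gbp2 and Ifi44 have a promoter but no values). The 1 lower member with ISRE letters is Oas3, which was bright enough to test only through its WT level, as given below. These shares were not tested. Among the same genes GAS letters stood upstream of 4 of 7, of 0 of 4 and of 5 of 16.

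**Figure D1:**
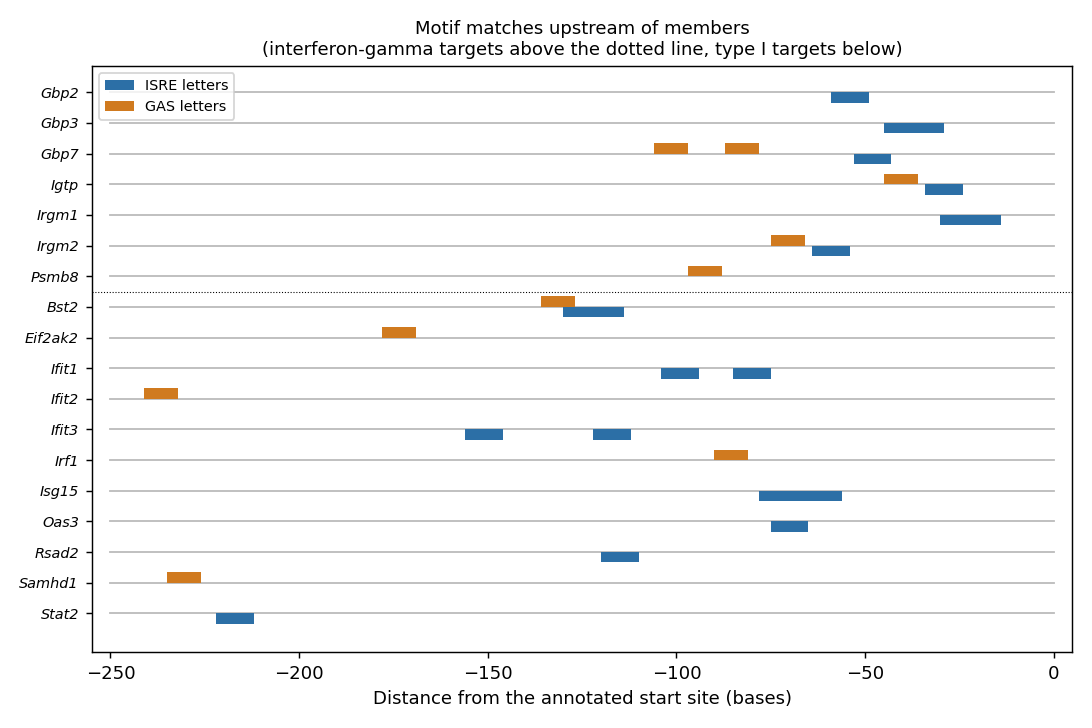
Position of ISRE letters (blue) and GAS letters (orange) in the 250 bases upstream of the annotated start site, for the 18 members with at least 1 match; the horizontal axis is the distance from the start site in bases. Irgm2 and Igtp show the same pair of adjacent matches, starting 75 and 64 bases upstream in Irgm2 and 45 and 34 bases upstream in Igtp.

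No interferon-stimulated gene of the set passed the test between KO and WT livers, and the set's counts lay near those of all genes. No member passed the adjusted threshold of 0.05 (limma, Benjamini-Hochberg over all genes tested), as against 6 of 12458 genes, or 0.0482%. Letting the variance follow intensity, limma passed 1.09% of all genes and again no member. Unadjusted p-values under 0.05 were reached by 3 of the 34 tested members, all higher in KO (Stat2, Ifit2 and Oas2), where 6.37% of all genes were higher and 3.92% lower at that level. Both KO pools lay above both WT pools for 9 members (26.5%) and below them for 5 (14.7%). The same held for 22.2% and 19.5% of all genes, so both counts lie near the background. Oas3, among the 5, passed the filter through its WT level alone, where it had to be the higher. With 2 pools per genotype, an exact two-sided permutation test of 1 gene cannot give a p below 0.333.

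The pools of 1 genotype often differed from each other by more than the genotypes did. For 27 of the 34 members (79.4%), the larger of the gaps between pools of a genotype exceeded the difference between the genotype means, against 70.8% of all genes. The 7 members for which it did not were Stat2, Ifit2, Oas2 and Parp14, higher in KO, and Oas3, Irf7 and Psmb9, lower in KO. Of these, Oas3 passed the filter only through its WT level, so the filter favoured its direction. The median gap over the members was 0.24 between the WT pools and 0.30 between the KO pools, and the median size of the KO minus WT difference was 0.20. Over all genes tested these values were 0.23, 0.26 and 0.22.

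**Figure D2:**
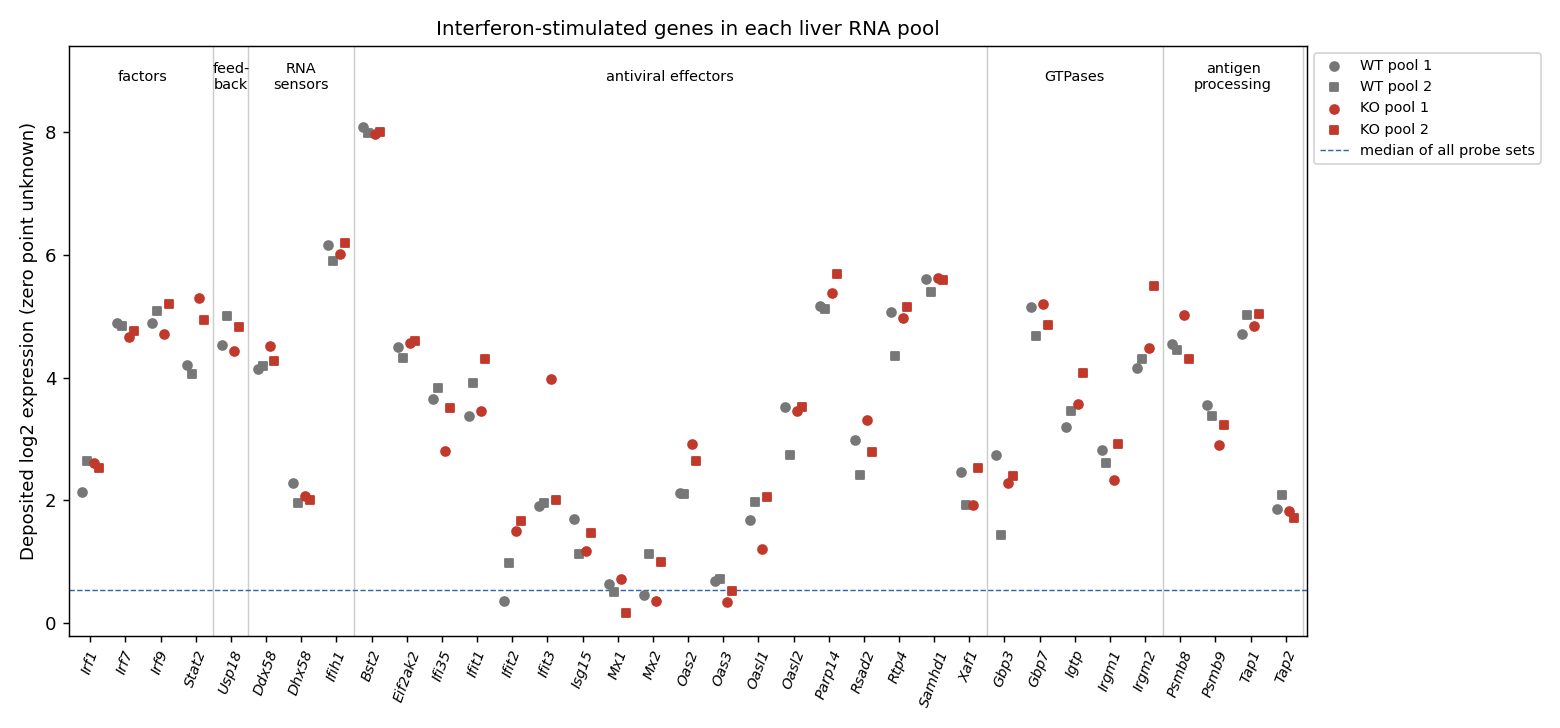
Deposited log2 expression of the 35 measured members in each pool (grey, WT; red, KO; circles, pool 1; squares, pool 2), ordered by role; the dashed line marks the median of all probe sets (0.54). Heights are comparable between pools of 1 gene and not between genes. Stat2, Ifit2 and Oas2 show both red symbols clear of the grey ones, while Ifit3 is raised in KO pool 1 alone.

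Among the factors that carry the signal to the nucleus, Stat2 had the smallest p. Stat2, the subunit that gives ISGF3 its transactivating domain, read 4.20 and 4.06 in WT and 5.29 and 4.93 in KO. Both KO pools were higher than both WT pools, and the pools of a genotype lay closer to each other than to the other genotype. The difference was 0.98 ± 0.22 (SE; limma, adjusted p = 0.297), or 1.98-fold, and the adjusted p was 0.0609 with a variance that follows intensity. Leaving out any 1 pool gave differences between 0.80 and 1.16. This was the smallest p among the members, and it did not pass the threshold.

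The other measured factors lay closer to 0. Irf9, the DNA-binding subunit of ISGF3, read 4.89 and 5.08 in WT and 4.71 and 5.20 in KO, so that the KO pools enclosed the WT pools. Irf7, the factor that amplifies type I interferon production, read 4.90 and 4.84 in WT and 4.67 and 4.76 in KO. Its difference was small, -0.16 ± 0.19 (SE; limma, adjusted p = 0.825), although the pools did not overlap. Irf1, an early target that itself activates interferon-gamma targets, read 2.14 and 2.64 in WT and 2.61 and 2.53 in KO, and the groups overlapped. Usp18, the protease that removes Isg15 from proteins and damps signalling at Ifnar2, read 4.53 and 4.999 in WT and 4.43 and 4.82 in KO, again with overlap (difference -0.14 ± 0.26 SE).

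For each of the 3 cytosolic RNA sensors the gap between pools of a genotype exceeded the genotype difference. Ddx58, which encodes RIG-I, read 4.14 and 4.19 in WT and 4.52 and 4.27 in KO, a difference of 0.23 ± 0.20 (SE; limma, adjusted p = 0.748) with KO pool 2 only just above the WT pools, and of 0.11 without KO pool 1. Ifih1, which encodes MDA5, read 6.16 and 5.89 in WT and 6.02 and 6.20 in KO. Dhx58, which encodes the regulatory helicase LGP2, read 2.29 and 1.95 in WT and 2.07 and 2.00 in KO. In Ifih1 and Dhx58 the groups overlapped, with differences of 0.08 ± 0.21 and -0.09 ± 0.21 (SE).

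Of the 17 tested antiviral effectors, 11 lay above 0 and 6 below, with a median of 0.17, against 0.01 over all genes tested. The Ifit genes, clustered on chromosome 19, whose products bind foreign RNA, gave unlike values. Ifit2 read 0.37 and 0.98 in WT and 1.51 and 1.66 in KO. Both KO pools were higher, with a difference of 0.91 ± 0.26 (SE; limma, adjusted p = 0.368), although WT pool 1 lay under the median of all probe sets, where differences can be compressed. Ifit3 read 1.90 and 1.96 in WT and 3.97 and 2.01 in KO. The difference of 1.06 ± 0.61 (SE; limma, adjusted p = 0.625) was the highest among the members and came from KO pool 1; without that pool it was 0.07. Ifit1, whose promoter holds a pair of ISRE matches as that of Ifit3 does, read 3.37 and 3.92 in WT and 3.46 and 4.31 in KO. Here KO pool 2 was the higher one, the groups overlapped, and the difference was 0.24 ± 0.35 (SE). KO pool 1 thus stood out for Ifit3 but not for Ifit1.

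The oligoadenylate synthetases also gave unlike values. Oas2, which makes the second messenger that activates RNase L, read 2.12 and 2.10 in WT and 2.92 and 2.64 in KO. Both KO pools were higher by more than the pools of a genotype differed, with a difference of 0.67 ± 0.20 (SE; limma, adjusted p = 0.383). Oas3, its neighbour on chromosome 5 with the same activity, read 0.69 and 0.72 in WT and 0.35 and 0.53 in KO, a difference of -0.27. Its WT mean lay above the median probe set and its KO mean below it, so it was tested only through WT, where it is high, and no test of it is given. The synthetase-like genes overlapped: Oasl1 read 1.68 and 1.97 in WT and 1.20 and 2.05 in KO. Oasl2 read 3.52 and 2.74 in WT and 3.45 and 3.52 in KO, so that WT pool 2 was the low one.

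Several classic markers of a type I response showed no separation. Isg15, the ubiquitin-like modifier, read 1.70 and 1.14 in WT and 1.18 and 1.47 in KO (difference -0.10 ± 0.26 SE). Rsad2, the antiviral enzyme viperin, read 2.98 and 2.42 in WT and 3.31 and 2.79 in KO (0.35 ± 0.29 SE), with KO pool 2 below WT pool 1; leaving out 1 pool gave differences between 0.072 and 0.63. Bst2, the tetherin that holds budding virus at the cell surface, read 8.08 and 7.98 in WT and 7.97 and 7.999 in KO, so that the groups overlapped (-0.04 ± 0.19 SE). Mx2, a dynamin-like GTPase, read 0.46 and 1.13 in WT and 0.36 and 1.00 in KO. Mx1 read 0.64 and 0.50 in WT and 0.72 and 0.16 in KO, too dim to test with the filter (-0.13; limma without the filter, adjusted p = 0.932). RefSeq lists Mx1 and Mx2 of the reference strain as transcribed pseudogenes.

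Parp14, an ADP-ribosyltransferase, read 5.17 and 5.12 in WT and 5.38 and 5.69 in KO, higher in both KO pools (0.39 ± 0.21 SE; limma, adjusted p = 0.597). Eif2ak2, the kinase PKR that halts translation on double-stranded RNA, read 4.50 and 4.32 in WT and 4.56 and 4.59 in KO, a narrow separation of 0.17 ± 0.19 (SE). Ifi35, whose product binds the interferon-induced protein Nmi, had the opposite sign. It read 3.64 and 3.83 in WT and 2.80 and 3.51 in KO, a difference of -0.59 ± 0.29 (SE; limma, adjusted p = 0.569), which was -0.23 without KO pool 1. A dimmer probe set of Ifi35 differed by 0.16 in the opposite direction. Rtp4, a chaperone of receptor transport, read 5.07 and 4.36 in WT and 4.98 and 5.16 in KO, with overlap. Xaf1, a pro-apoptotic factor, read 2.46 and 1.93 in WT and 1.92 and 2.53 in KO, and Samhd1, the dNTP hydrolase, 5.61 and 5.39 in WT and 5.62 and 5.59 in KO. Both overlapped, with differences of 0.03 ± 0.30 and 0.10 ± 0.20 (SE).

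Among the interferon-gamma targets, the immunity-related GTPases Irgm2 and Igtp read higher in both KO pools. These GTPases control membranes around intracellular pathogens and lipid droplets. Irgm2 read 4.15 and 4.31 in WT and 4.48 and 5.50 in KO. KO pool 2 was the higher one: the difference was 0.76 ± 0.36 (SE; limma, adjusted p = 0.554) and 0.26 without that pool. Igtp, also known as Irgm3, read 3.20 and 3.46 in WT and 3.57 and 4.07 in KO, with the same order of pools and a difference of 0.49 ± 0.25 (SE; limma, adjusted p = 0.586), or 0.24 without KO pool 2. Irgm1 read 2.83 and 2.60 in WT and 2.33 and 2.91 in KO, so the groups overlapped (-0.09 ± 0.26 SE). Irgm2 and Igtp are close in sequence upstream, as shown above; whether their probe sets also share sequence was not tested.

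The guanylate-binding proteins, which attack pathogen vacuoles, overlapped. Gbp3 read 2.74 and 1.44 in WT and 2.29 and 2.39 in KO, so that the KO pools lay between the WT pools (0.25 ± 0.43 SE). Gbp7 read 5.15 and 4.68 in WT and 5.20 and 4.86 in KO (0.11 ± 0.25 SE). Members of both GTPase families are similar to their relatives in sequence, and their probe sets may measure relatives too.

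The genes of antigen processing, which sit side by side in the MHC region of chromosome 17, lay around 0, with a median of -0.06 over 4 genes. Psmb9, a catalytic subunit of the immunoproteasome, read 3.56 and 3.37 in WT and 2.91 and 3.22 in KO. Both KO pools were lower, with a difference of -0.40 ± 0.22 (SE; limma, adjusted p = 0.601). Tap1, a subunit of the peptide transporter whose start site faces that of Psmb9, read 4.71 and 5.02 in WT and 4.84 and 5.04 in KO, with overlap (0.08 ± 0.22 SE). Tap2, the other subunit, read 1.86 and 2.08 in WT and 1.83 and 1.71 in KO, both KO pools lower by a small margin (-0.20 ± 0.20 SE). Psmb8, another catalytic subunit, read 4.55 and 4.45 in WT and 5.02 and 4.31 in KO, so that the KO pools lay on either side of the WT pools. No ISRE or GAS letters stood in the windows of Psmb9 and Tap1, and GAS letters stood in that of Psmb8.

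**Figure D3:**
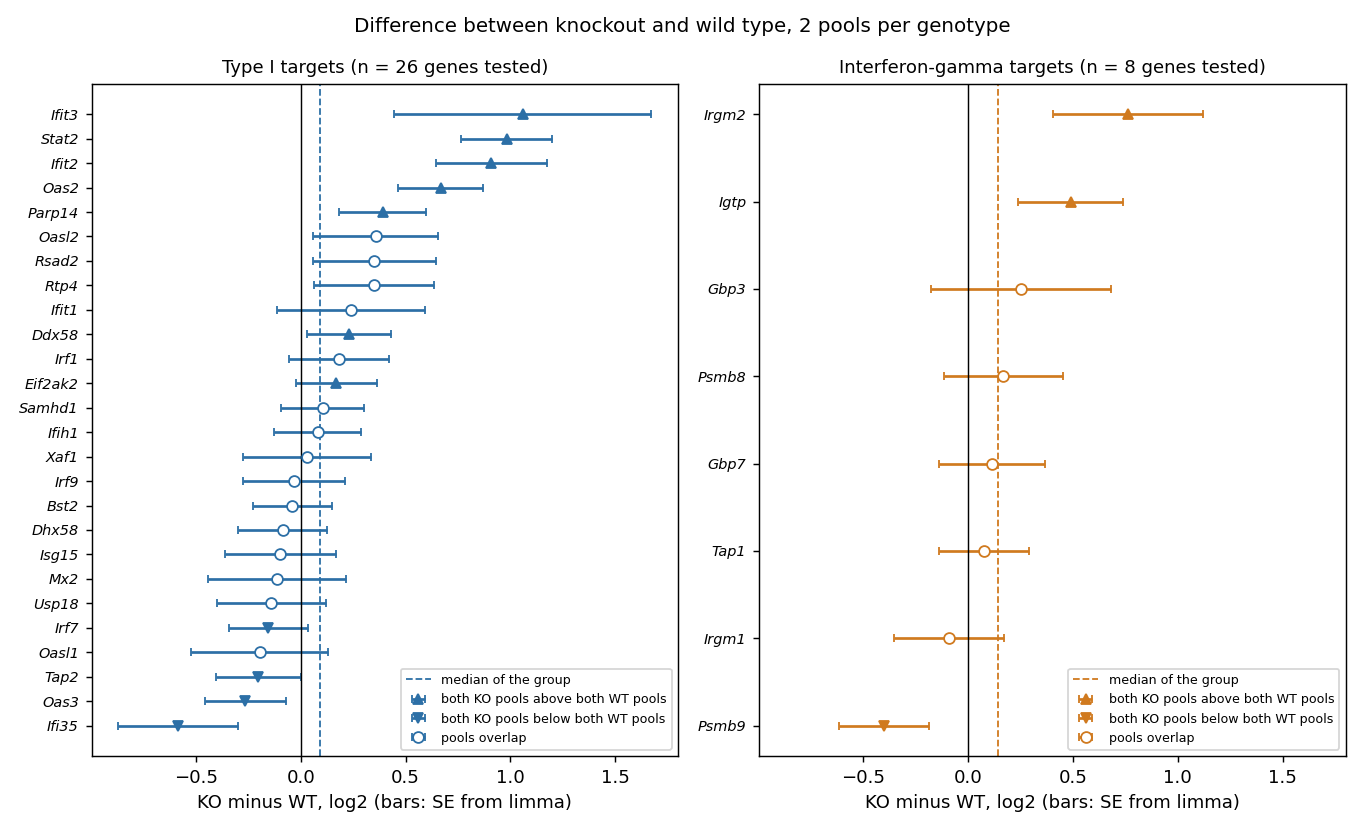
KO minus WT difference on the log2 scale for the 26 type I targets and 8 interferon-gamma targets tested, with the SE from limma as bars; triangles mark genes whose pools do not overlap, open circles those whose pools do, and dashed lines the medians of 0.09 and 0.14. Both groups straddle 0, with Ifit3, Stat2 and Ifit2 furthest right on the left panel and Irgm2 on the right panel. Oas3 passed the filter only through WT, where it is high, so its bar is not read as a test.

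Type I targets and interferon-gamma targets had similar medians. The median KO minus WT difference was 0.09 over the 26 tested type I targets, of which 15 lay above 0, and 0.14 over the 8 tested interferon-gamma targets, of which 6 did. The median of all genes tested was 0.01. The type I median minus the interferon-gamma median was -0.05; leaving out WT pool 2 gave 0.03 and leaving out KO pool 2 gave -0.25, so its sign turned with 1 pool. Relative to the WT mean of each gene, the type I targets had a median of -0.03 in KO pool 1 and 0.16 in KO pool 2, with 12 and 20 of 26 genes above that mean. The interferon-gamma targets had medians of 0.22 and 0.19, with 5 of 8 genes above in each KO pool. The WT pools themselves stood at 0.02 and -0.02 for the type I targets and at 0.07 and -0.07 for the interferon-gamma targets. Of the KO pools, pool 2 alone had a type I median above 0, and both had an interferon-gamma median above 0. The interferon-gamma difference was -0.0016 without WT pool 2 and 0.28 without WT pool 1. Placing Irf1 and Tap2 with the interferon-gamma targets gave the same medians to 2 decimals. This could not turn out otherwise, since Irf1 lay above both medians and Tap2 below both, so it does not test the grouping.

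Further genes of the pathway were read from lists. Interferon ligands were dim: of 11 with a probe set, 4 passed the filter, and Ifnb1 and Ifng were not among them. Ifnb1 read 0.21 and -0.14 in WT and 0.12 and -0.08 in KO, and Ifng -0.0057 and 0.28 in WT and 0.34 and 0.09 in KO, all dimmer than the median probe set. Ifna4, one of many near-identical interferon-alpha genes, read 1.45 and 1.65 in WT and 2.20 and 1.84 in KO (0.47 ± 0.22 SE; limma, adjusted p = 0.557). Ifna6 differed by -0.05 ± 0.23 (SE). The lambda interferon Ifnl2 differed by -0.53, but passed the filter only through WT, where it is high, and no test of it is given.

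Of 8 tested receptors and kinases, 5 (62.5%) lay higher in both KO pools and none lower, against 22.2% and 19.5% of all genes, with no call at the adjusted threshold and a median of 0.17. Ifngr1, the ligand-binding chain of the interferon-gamma receptor, read 4.66 and 4.55 in WT and 5.15 and 5.19 in KO, a difference of 0.57 ± 0.19 (SE; limma, adjusted p = 0.419). Jak2, the kinase that works with Ifngr2, read 4.64 and 4.07 in WT and 5.12 and 5.15 in KO (0.78 ± 0.25 SE; limma, adjusted p = 0.405). Il10rb, shared by the receptors for lambda interferons and interleukin 10, read 4.29 and 4.38 in WT and 4.87 and 4.97 in KO (0.58 ± 0.19 SE; limma, adjusted p = 0.405). In these 3 genes the KO pools lay close together and clear of the WT pools. The type I receptor chains overlapped, with Ifnar1 at 0.0030 ± 0.24 and Ifnar2 at -0.06 ± 0.20 (SE).

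Among 11 tested sensors and adaptors of foreign nucleic acid, 4 (36.4%) lay higher in both KO pools and 2 (18.2%) lower, against 22.2% and 19.5% of all genes. Zbp1, a sensor of Z-form nucleic acid that can start necroptosis, read 3.23 and 2.97 in WT and 3.81 and 3.80 in KO (0.71 ± 0.20 SE; limma, adjusted p = 0.365). Tmem173, the adaptor STING, read 1.95 and 0.86 in WT and 2.64 and 2.19 in KO, a difference of 1.01 ± 0.40 (SE). Its WT pools lay further apart than the genotype means. Tlr3, a receptor for double-stranded RNA, differed by 0.44 ± 0.22 (SE). The 5 other signal factors had a median of 0.26 and none passed; Irf2, a repressor of interferon targets, lay lower in both KO pools at -0.47 ± 0.21, and Irf8 and Ciita differed by 0.48 ± 0.34 and 0.26 ± 0.37 (SE). The 5 feedback inhibitors had a median of 0.13, with Ptpn2 at 0.20 ± 0.27, Adar at 0.14 ± 0.19 and Pias1 at 0.13 ± 0.21 (SE). Again no gene of these lists passed the adjusted threshold.

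Interferon targets outside the set were measured as well. The 27 tested further type I targets had a median of -0.02, with 13 above 0 and 14 below; 6 (22.2%) were higher and 4 (14.8%) lower in both KO pools, against 22.2% and 19.5% of all genes. Sp110, a nuclear body protein, read 1.90 and 2.40 in WT and 3.02 and 3.19 in KO (0.96 ± 0.24 SE; limma, adjusted p = 0.326). Oas1g, another oligoadenylate synthetase, read -0.06 and 0.54 in WT and 1.29 and 1.04 in KO (a difference of 0.93). Its WT mean lay below the median probe set, so it passed the filter only through KO, where it is high. It is 1 of the 6 counted as higher, the side that the filter favoured for it, and no test of it is given. Slfn8 also passed only through KO and Trim30a only through WT, and the pools of both overlapped. Ifitm2, a membrane protein that blocks virus entry, read 3.33 and 4.24 in WT and 2.37 and 2.76 in KO (-1.22 ± 0.35 SE; limma, adjusted p = 0.365). Neither Sp110 nor Ifitm2 passed the threshold.

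The 20 tested further interferon-gamma targets had a median of 0.34, with 15 above 0. In both KO pools 8 (40.0%) lay higher and 1 (5.0%) lower, against 22.2% and 19.5% of all genes. Gbp8, a guanylate-binding protein, read 1.68 and 0.78 in WT and 2.35 and 2.62 in KO (1.26 ± 0.33 SE; limma, adjusted p = 0.337). H2-Q4, a non-classical MHC class I gene, differed by 0.51 ± 0.21 and Vcam1, an adhesion protein of activated endothelium, by 0.62 ± 0.27 (SE). No gene of the list passed the threshold, and the difference between this list and the further type I targets was not tested.

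**Figure D4:**
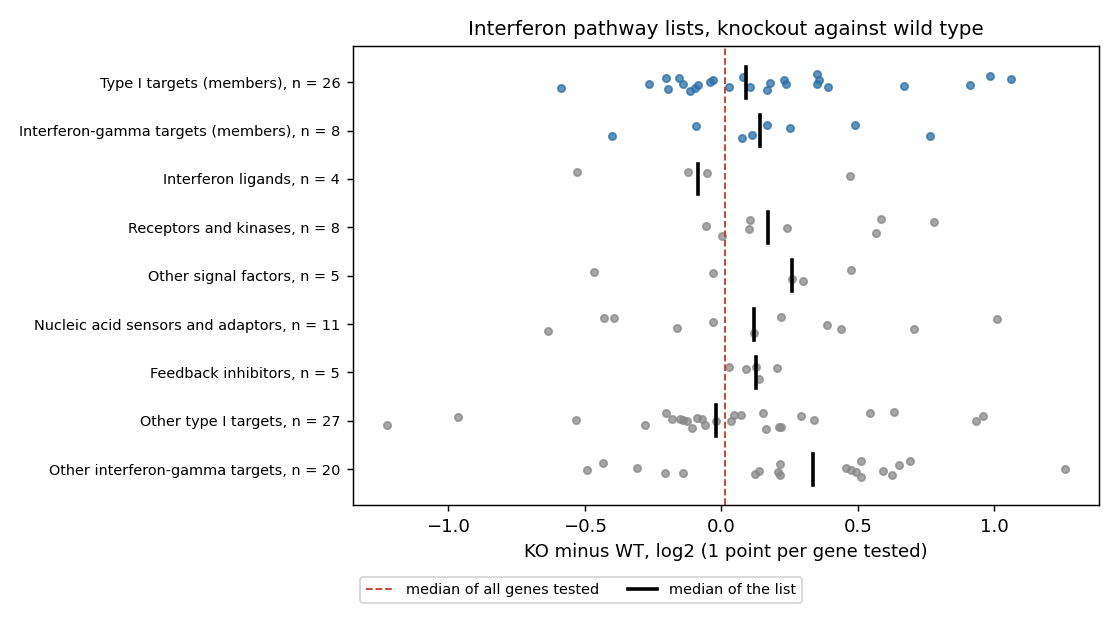
KO minus WT difference on the log2 scale for each tested gene (1 point per gene) of the members' 2 groups (blue) and of the further pathway lists (grey), with list medians as black bars and the median of all genes tested (0.01) as a dashed line. List medians run from -0.09 for the ligands to 0.34 for the further interferon-gamma targets.

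Markers of some cell types differed in level between the same pools, and none passed the adjusted threshold. The summed log2 level of 6 markers of monocyte-derived macrophages was 16.1 and 16.4 in WT and 21.6 and 21.8 in KO, with all 6 above 0, a median difference of 0.93 and Trem2 at 1.30. For 7 hepatocyte markers the sums were 61.7 and 61.0 in WT and 59.9 and 60.6 in KO, with Alb at 10.91 and 10.90 in WT and 10.70 and 10.81 in KO. For 5 Kupffer cell markers the sums were 19.9 and 21.9 in WT and 19.1 and 18.5 in KO, with a median difference of -0.01; Marco differed by -2.37, Timd4 by -0.40, Vsig4 by -0.01, Clec4f by 0.33 and Cd5l by 0.36. For 9 T and NK cell markers the sums were 7.99 and 6.62 in WT and 8.45 and 7.85 in KO. Of the 7 tested, only 3 lay above 0, with a median difference of -0.01. Among these 7, Cd8a, above 0, passed the filter only through KO, and Cd4, below 0, only through WT. For 4 plasmacytoid dendritic cell markers, Bst2 included, the sums were 12.5 and 12.3 in WT and 12.8 and 13.0 in KO, with a median difference of 0.05 over the 3 tested. Of these Tcf4 differed by 0.05, and Siglech read 0.55 and 0.23 in WT and 0.93 and 0.64 in KO, passing the filter only through KO; Ccr9 was dimmer than the median probe set in all 4 pools. Sums were 8.63 and 11.3 in WT and 10.9 and 11.8 in KO for 4 conventional dendritic cell markers, and 25.6 and 24.9 in WT and 27.1 and 27.6 in KO for 5 stellate cell markers. The stellate cell markers had a median difference of 0.23, with 4 above 0. Cholangiocyte markers summed to 6.02 and 4.46 in WT and 6.22 and 8.09 in KO, endothelial markers to 23.7 and 23.9 in WT and 23.4 and 23.95 in KO, and B cell markers to 0.962 and 1.62 in WT and 2.09 and 1.57 in KO. All 4 neutrophil markers were too dim to test. The part of these cells in the differences of Stat2, Irgm2, Ifngr1 and the other genes above was not tested. In whole liver, a change in the number of cells of a type and a change in RNA per cell cannot be told apart.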

How the data were processed

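The values are log2 expression of 41345 probe sets on 4 arrays, deposited by the authors; they run from -1.12 to 11.9. Limma, oligo and RMA are named in the submitters' processing notes; versions, order, build and annotation were not given in the sources used here. Each array took 400 ng of RNA, per the labels' protocols.

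Of the probe sets, 23521 were paired with 1 symbol. Genes no dimmer on average than the median probe set were compared by limma 3.58.1 in R 4.3.3 (lmFit, eBayes), KO minus WT, without covariates (residual degrees of freedom 2, prior 3.67), with Benjamini-Hochberg adjustment over 12458 genes at 0.05. Simulated data were also put through these steps. That run is not used here to judge how often differences as small as those of the members would pass. The absence of a passing member therefore does not show that these genes are unchanged. The p-values and SE rest on how far the pools of a genotype differ. By eBayes, each gene's variance is drawn towards a value fitted over all genes tested. Differences between pools may be technical, and the number of arrays limits the precision.

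The members and lists were chosen with earlier results of these data known, and lists are described by counts and medians with no test. All members are named. From each pathway list, the 3 tested genes with the smallest p are named. Further genes (Ifnb1, Ifng, Ifnar1, Ifnar2, Slfn8, Trim30a, Trem2, Siglech, Ccr9, Tcf4, Marco, Timd4, Cd8a, Cd4) were chosen after their values were seen. Alternatives were the variance model, a robust prior (statmod 1.5.0), quantile normalization, median centring, the filter, the probe set rule, a replicate block and each pool left out. Promoters are RefSeq's, GRCm38.p6; Usp18, Mx1, Mx2, Oas2, Dhx58, Rtp4, Parp14 and Tap2 had no entry.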

Additional observations from a re-analysis of the deposited data

How the results depend on the processing

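No member passed the adjusted threshold under any alternative, and the smallest adjusted p of a member was 0.0609 (Stat2, variance following intensity). The count of genes passing was 6; it was 136 with a variance that follows intensity, 49 of them higher in KO. With the replicate number as a block, limma passed 2 genes and again no member. The titles only number the replicates, so whether same-numbered pools belong together is not known. Across 12458 genes the deviations of same-numbered pools had r = -0.04, which cannot show how the pools were made. Leaving out 1 pool gave 0 genes each time by limma, with 2 or 3 members higher in KO at an unadjusted p under 0.05, against 517 to 691 genes (4.15% to 5.55%), and none lower except 1 without KO pool 2, against 296 to 638 genes (2.38% to 5.12%); the lone pool is then assumed to vary like the other genotype. Members whose pools did not overlap numbered 14. The count was 16 with quantile normalization, 13 with median centring and 12 with a stricter filter. With 1 pool left out it was 21 to 26, where fewer pools make overlap rarer. The share of all genes was not computed for these alternatives, so their counts cannot be set against a background. With 1 pool left out, the type I median ran from -0.032 to 0.19, the interferon-gamma median from -0.0016 to 0.28, and their difference from -0.25 to 0.032; a stricter filter gave a difference of -0.0047.

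The sign of the difference held in every setting for 15 of 34 members: the 14 whose pools did not overlap, and Rsad2. Where pools do not overlap, leaving out 1 pool cannot turn the sign, so this count mostly restates the 14. The share over all genes was not computed. Some of the 15 moved by over 1.5 times with 1 pool left out: Ddx58 ran from 0.11 to 0.35, Eif2ak2 from 0.080 to 0.26, Rsad2 from 0.072 to 0.63, Parp14 from 0.23 to 0.55, Ifit2 from 0.60 to 1.22, Psmb9 from -0.56 to -0.24, Oas3 from -0.36 to -0.18 and Tap2 from -0.31 to -0.091, beside Ifit3, Ifi35, Irgm2 and Igtp above. Quantile normalization turned Irf9 (0.0026), Bst2 (0.033) and Xaf1 (-0.038), and median centring turned Xaf1 (-0.017). Leaving out 1 pool turned 19 members, whose differences ran from -0.19 to 0.66 for Ifit1, -0.38 to 0.18 for Isg15, -0.37 to 0.092 for Usp18, -0.45 to 0.22 for Mx2, -0.62 to 0.23 for Oasl1, -0.037 to 0.75 for Oasl2, -0.28 to 0.21 for Irf9, -0.067 to 0.43 for Irf1, -0.051 to 0.21 for Ifih1, -0.25 to 0.082 for Dhx58, -0.092 to 0.0091 for Bst2, -0.0066 to 0.71 for Rtp4, -0.28 to 0.33 for Xaf1, -0.0046 to 0.21 for Samhd1, -0.40 to 0.90 for Gbp3, -0.12 to 0.35 for Gbp7, -0.38 to 0.20 for Irgm1, -0.077 to 0.23 for Tap1 and -0.19 to 0.53 for Psmb8. The cause was not tested. No scaling moved the median of all genes by more than 0.1, and signal near background limits Ifit2, Oas3, Mx1, Mx2, Oas1g and Ifnl2.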
